A study of Mus musculus with 74 samples.

Results

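The complement genes C1qa, C1qb, C1qc, C3, C4b, C3ar1, C5ar1 and Serping1 were taken by their symbols from a table of 49912 genes, 8 members in all, and were followed in every group of both sorted cell fractions. The mice were Trem2 +/+ (WT), Trem2 +/- (HET) or Trem2 -/- (KO), and they ate control chow or chow with 0.2% cuprizone for 5 or 12 weeks, times chosen for acute and for chronic loss of myelin. The brain of each of 37 animals was perfused with PBS and dissociated whole. Viable Cd11b+ cells (called microglia) and all remaining viable cells (called nonmicroglia) were sorted from it, which gave 74 libraries of 3' tags. Each of the 12 groups per fraction held 3 animals, except 4 HET animals on either diet at 12 weeks and 2 WT controls at 12 weeks, and 1 animal of each group was male. The labels give no age, and no cell type to which the loss of Trem2 is limited.

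Complement is a cascade of plasma proteins that tags material for removal. C1q is its recognition molecule, built from 3 chains, A, B and C, that are assembled together and are the products of C1qa, C1qb and C1qc. It binds targets such as antibody complexes and cell debris and starts the classical pathway, in which C4 and then C3 are cleaved and their fragments are attached to the target. In the brain, microglia are known as the main source of C1q, and C1q and C3 are known for marking synapses for removal. The small fragment of C3 acts through the receptor C3ar1 and that of C5 through C5ar1. Serping1 encodes the C1 inhibitor, which blocks the proteases attached to C1q. Cuprizone is a copper-binding toxin that is used to remove myelin in mice, and Trem2 is a microglial receptor that binds lipids.

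The 3 C1q genes lie side by side on chromosome 4 within 18.7 kb, all on the minus strand (GRCm38.p6, GENCODE M21 coordinates): C1qb (ENSMUSG00000036905.8) at 136880129 to 136886187, C1qc (ENSMUSG00000036896.5) at 136889804 to 136893065 and C1qa (ENSMUSG00000036887.5) at 136895917 to 136898803. The 300 bases around the RefSeq starts of C1qb and C1qc, from 250 before to 50 after the start, are shown because both genes were higher in HET than in WT microglia after 12 weeks of cuprizone, whereas their neighbour C1qa was not. RefSeq promoter sequences of GRCm38.p6 matched 5 of the 8 members (C1qb, C1qc, C3, C3ar1 and C5ar1). Both are printed 5' to 3' on the minus strand, the first at chr4:136886151-136886450 and the second at chr4:136892865-136893164. Capitals mark the letters GAGGAA or, read on the opposite strand, TTCCTC, the core letters to which the myeloid factor PU.1 is known to bind.
C1qb: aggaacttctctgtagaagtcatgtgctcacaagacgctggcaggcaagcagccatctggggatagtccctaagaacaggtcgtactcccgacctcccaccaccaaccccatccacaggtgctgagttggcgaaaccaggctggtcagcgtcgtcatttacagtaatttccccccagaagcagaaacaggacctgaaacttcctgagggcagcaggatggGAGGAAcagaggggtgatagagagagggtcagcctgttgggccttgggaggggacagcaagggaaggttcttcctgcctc
C1qc: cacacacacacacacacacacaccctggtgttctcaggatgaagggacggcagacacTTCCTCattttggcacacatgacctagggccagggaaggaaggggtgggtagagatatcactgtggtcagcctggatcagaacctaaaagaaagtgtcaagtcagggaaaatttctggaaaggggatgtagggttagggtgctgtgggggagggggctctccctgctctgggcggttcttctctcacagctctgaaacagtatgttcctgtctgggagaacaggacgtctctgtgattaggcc
GAGGAA was searched on both strands. It occurred once in each of the printed sequences, starting 30 bases before the start in C1qb and 193 bases before it in C1qc. In the matched sequences of C3, C3ar1 and C5ar1 it occurred 0 times, and C1qa had no matched sequence. The letters GAGGAA occurred in 9289 of 32851 RefSeq promoters of this length (28.3%). The letters TATAAA, in 13.6% of all promoters, were in neither printed sequence, but once each in those of C3 and C3ar1. A match is a description of letters and not a binding site.

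Total counts ran from 1043961 to 3945694 over the microglia libraries, around a median of 1782314, and from 1255465 to 3441041 over the nonmicroglia libraries, around a median of 1705753. Levels are given in CPM, a gene's counts divided by the total counts of its library and scaled by 1e6. The 12 microglia markers summed to 16989 to 43629 CPM in the microglia libraries and 344 to 851 CPM in the nonmicroglia libraries. The 8 neutrophil markers summed to 103 to 7999 CPM in microglia libraries, with Ly6g at a median of 0. Trem2 itself was at 418 to 989 CPM in WT, 308 to 987 CPM in HET and 109 to 250 CPM in KO microglia. After 12 weeks of cuprizone it was at 848 ± 121 CPM in HET (SD, n = 4) and 920 ± 96.8 CPM in WT (SD, n = 3), with overlap. In controls of 12 weeks it was at 362 ± 63.3 CPM in HET (SD, n = 4) and 827 ± 138 CPM in WT (SD, n = 2). On principal component 1 of log2 CPM, 5 microglia libraries lay more than 30 from 0, those of animals 9145, 7674, 945, 981 and 2476. So did the nonmicroglia libraries of animals 1930 and 9144. Below, such libraries are said to stand apart. Animal 2476, a HET animal on cuprizone for 12 weeks, was barely past that cut at -30.19, beside animal 2474 at -27.34. The other microglia libraries beyond the cut were on the opposite side, at 36.69 to 46.39. Nonmicroglia animal 9144, at 30.45, lay beside animal 9469 at 27.63. The microglia results below were repeated without those 5 microglia libraries.

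In microglia the 3 C1q genes together made up 9556 to 20259 CPM. C1qa ranged from 4038 to 17239 CPM over the 37 libraries (median 7271), C1qb from 630 to 2265 CPM (median 1155) and C1qc from 2389 to 9471 CPM (median 3011). The lowest count behind any of these values was 878, so that counting error was small beside the spread between animals. The 3 genes did not share 1 order of groups. C1qa was highest in WT microglia after 12 weeks of cuprizone, the group in which C1qb was lowest and C1qc next to lowest. C1qc was highest in HET microglia after 12 weeks of cuprizone, where C1qa held rank 10 of 12.

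**Figure D1:**
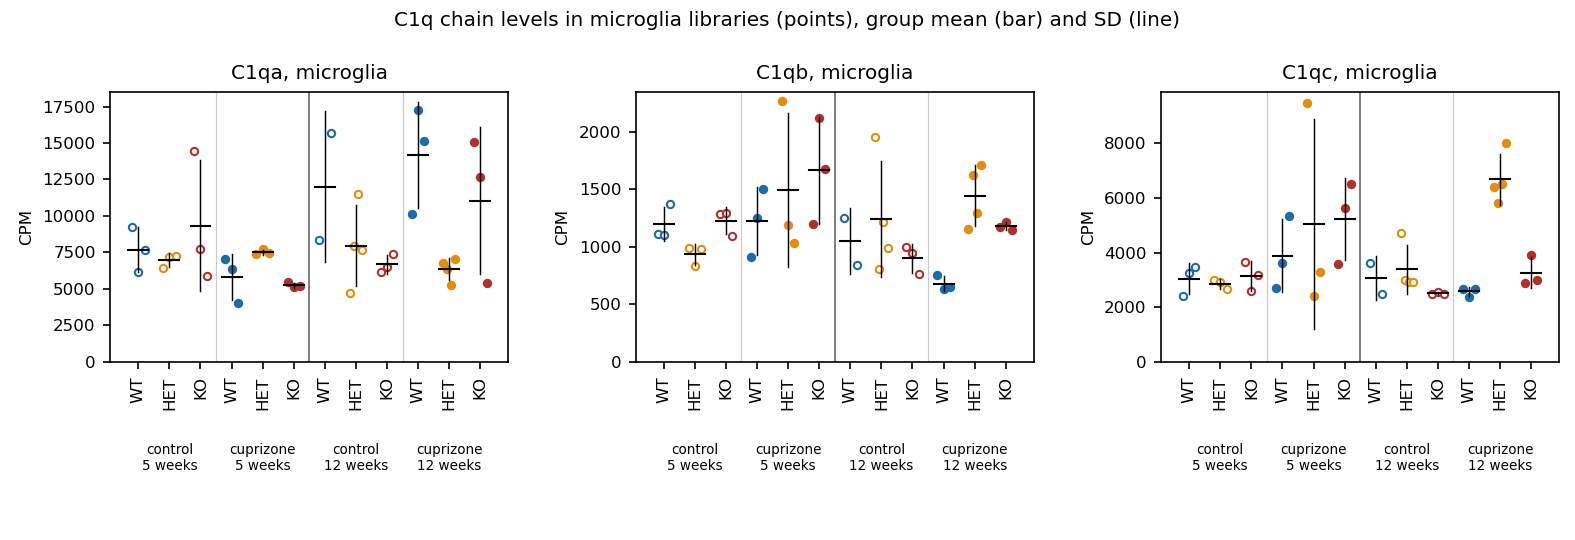
Levels of C1qa, C1qb and C1qc in microglia, in CPM on a linear axis from 0, with 1 point per library, a bar for the group mean and a line for its SD. C1qa was highest in WT animals on cuprizone for 12 weeks (10156 to 17239 CPM) and C1qc in HET animals on cuprizone for 12 weeks (5809 to 7992 CPM).

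After 12 weeks of cuprizone, C1qc was at 6392, 5809, 6523 and 7992 CPM in the 4 HET animals (6679 ± 929, SD, n = 4). It was at 2678, 2389 and 2657 CPM in the 3 WT animals (2575 ± 161, SD, n = 3) and at 3911, 3011 and 2869 CPM in the 3 KO animals (3264 ± 565, SD, n = 3). Every HET library lay above every WT and every KO library. C1qc was higher in HET than in WT by a log2 fold change of 1.44 ± 0.30 (SE, adjusted p = 0.0204). It was lower in KO than in HET by -1.19 ± 0.30 (adjusted p = 0.0334), and it did not pass the test between KO and WT (0.25 ± 0.31, adjusted p = 0.833). Fewer cells of a type and less RNA per cell cannot be told apart in such pooled libraries.

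C1qb encodes the B chain. After 12 weeks of cuprizone it was at 1155, 1621, 1290 and 1710 CPM in HET (1444 ± 264, SD, n = 4), at 752, 630 and 653 CPM in WT (678 ± 64.8, SD, n = 3) and at 1215, 1148 and 1169 CPM in KO (1177 ± 34.4, SD, n = 3). All HET and KO libraries lay above the 3 WT libraries. C1qb was higher in HET than in WT by 1.16 ± 0.26 (adjusted p = 0.0298), while the difference between KO and WT did not pass (0.70 ± 0.27, adjusted p = 0.361).

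C1qa, which encodes the A chain, had the opposite order. In the same libraries it was at 10156, 17239 and 15150 CPM in WT (14182 ± 3640, SD, n = 3), at 6760, 6385, 5284 and 7039 CPM in HET (6367 ± 770, SD, n = 4) and at 12640, 5397 and 15075 CPM in KO (11037 ± 5034, SD, n = 3). WT and HET did not overlap, and the KO libraries spanned both. The log2 fold change of HET against WT was -1.13 ± 0.28 and did not pass over all genes (adjusted p = 0.0931). The sum of the 3 genes was 13586 to 20259 CPM in WT and 13097 to 16741 CPM in HET, with overlap.

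Of the 7 members tested in microglia, 2 were called between HET and WT at 12 weeks of cuprizone, where 0.121% of the 14087 genes tested were called, at an adjusted p under 0.05. Between KO and HET 1 of 7 was called, against 1.05% of all genes, and between KO and WT 0 of 7, against 0.44%. Between KO and WT the unadjusted p was under 0.05 for 1 member (C1qb) and for 1387 of the 14087 genes. For KO against WT the DESeq2 Wald test called 0 members as well. The change with diet did not pass as different between HET and WT at 12 weeks (C1qc 1.27 ± 0.43, adjusted p = 0.547). In the same libraries other measures moved too. Mitochondrially encoded genes took 4.05 to 4.56% of counts in the 4 HET libraries, 1.72 to 2.56% in WT and 1.85 to 3.17% in KO. The summed microglia markers were at 21324 to 26520 CPM in HET and 16989 to 20101 CPM in WT, and the summed neutrophil markers at 103 to 314 CPM in HET and 656 to 1084 CPM in WT. KO libraries held 24851 to 28662 CPM of microglia markers, which overlapped with HET, and 589 to 6396 CPM of neutrophil markers, all above HET. Endothelial markers were at 204 to 374 CPM in HET, 308 to 503 CPM in WT and 88.6 to 193 CPM in KO, reactive astrocyte markers at 79.2 to 106.8 CPM in HET and 140 to 275 CPM in WT, and border macrophage markers at 268 to 576 CPM in HET and 693 to 1087 CPM in KO. The part of these cell types in the results was not tested.

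With the mitochondrial share of counts as a covariate, an alternative chosen after seeing the data, none of these calls passed. C1qc between HET and WT was then at 0.20, C1qb at 0.21 and C1qa at 0.10 on the log2 scale, each with an adjusted p of 1, and C1qc between KO and HET at -0.18 (adjusted p = 0.969). Without the 5 libraries that stood apart, C1qc between HET and WT was at 1.495 (adjusted p = 0.141) and between KO and HET at -1.19 (adjusted p = 0.349), C1qb between HET and WT at 1.09 (adjusted p = 0.0621), and C1qa passed at -1.11 (adjusted p = 0.0254). C1qb between HET and WT was also not called with limma voom (1.12, adjusted p = 0.0533), with no sex term (1.14, adjusted p = 0.0564) and with the share of counts on noncoding genes as a covariate, likewise chosen after seeing the data (1.14, adjusted p = 0.0559). With that last covariate C1qc between KO and HET was at -1.09 (adjusted p = 0.126). Leaving out 1 library ended the call of C1qc between HET and WT for animals 1746, 3917, 8043 and 9469 (adjusted p = 0.0953 to 0.235), and that of C1qb for animals 1746, 2476, 3917, 8043 and 9469 (adjusted p = 0.0875 to 0.275). It ended that of C1qc between KO and HET for animals 2476, 6296, 9469, 9542 and 981 (adjusted p = 0.0574 to 0.193). The fold changes stayed between 1.32 and 1.53, 1.04 and 1.31, and -1.42 and -1.06 in these repeats.

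**Figure D2:**
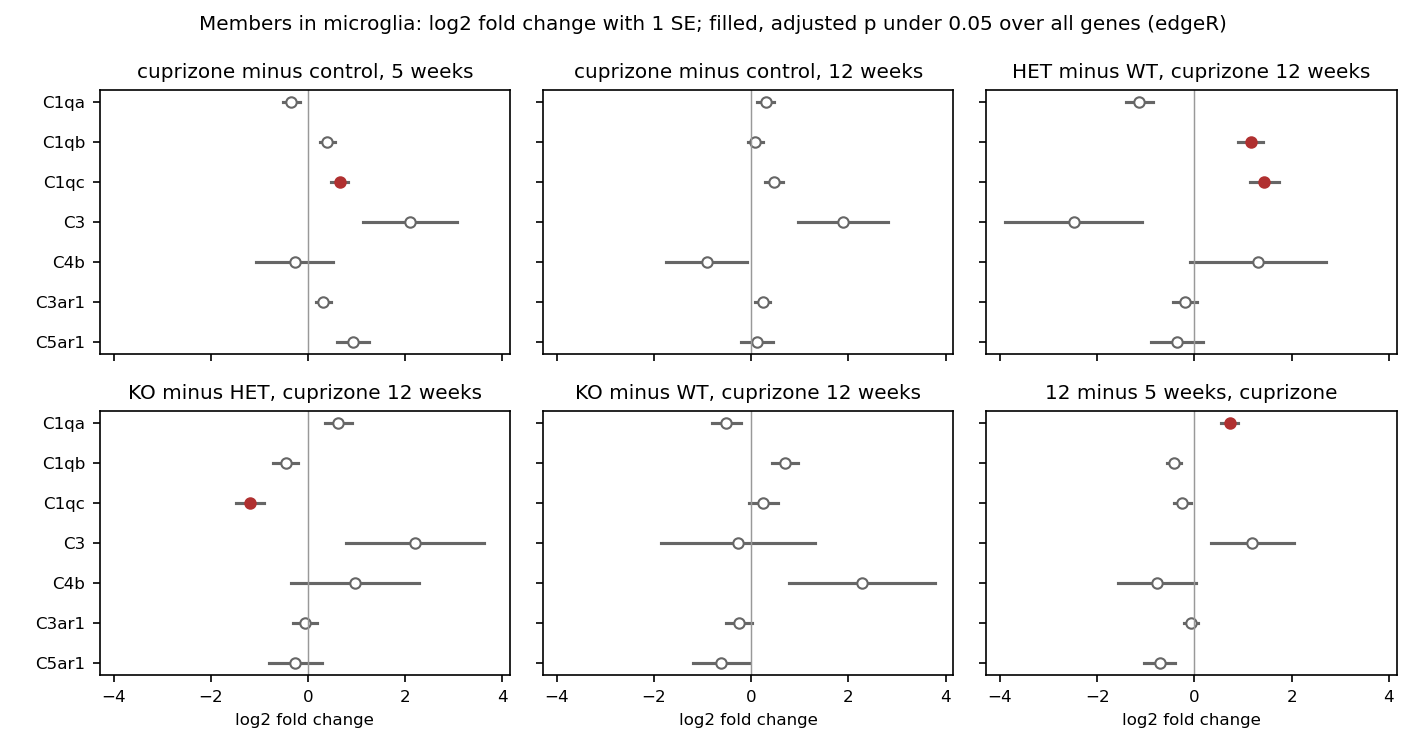
Log2 fold changes of the 7 members tested in microglia, with lines of 1 SE, in 6 comparisons; filled points have an adjusted p under 0.05 over all genes tested. After 12 weeks of cuprizone C1qc was at 1.44 and C1qa at -1.13 between HET and WT, on opposite sides of 0.

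Between diets at 5 weeks, C1qc was at 2391 to 3666 CPM in the 9 controls and at 2414 to 9471 CPM in the 9 animals on cuprizone, averaged over genotypes in the test. The HET animals on cuprizone were at 9471, 2414 and 3274 CPM, the KO animals at 5641, 3575 and 6504 CPM and the WT animals at 3631, 2686 and 5356 CPM, so that cuprizone and control overlapped. C1qc rose by a log2 fold change of 0.65 ± 0.18 (adjusted p = 0.0424), the only call among 7 members, where 1.6% of all genes were called. C1qb stood at 0.40 ± 0.15 (adjusted p = 0.215) and C1qa at -0.34 ± 0.17 (adjusted p = 0.436), neither of which passed. The call lay close to the threshold of 0.05. It was lost without any 1 of 13 of the 18 animals (1104, 1106, 1745, 1930, 2474, 2478, 309, 4352, 5512, 8485, 9144, 9470 and 9546; adjusted p = 0.0524 to 0.276), and without HET animal 1106 the fold change fell to 0.34. In the other repeats that lost the call the fold change stayed between 0.56 and 0.70. The mitochondrial share was 1.95 to 2.71% in controls and 2.70 to 4.65% on cuprizone. With it as a covariate the fold change was -0.08 (adjusted p = 1), with the noncoding share 0.63 (adjusted p = 0.0638), by limma voom 0.51 (adjusted p = 0.0734), and without the libraries that stood apart 0.72 (adjusted p = 0.118).

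At 12 weeks of cuprizone 0 of 7 members were called on the mean of the genotypes, against 2.95% of all genes. C1qc was at 0.47 ± 0.18 (adjusted p = 0.171), C1qa at 0.30 ± 0.17 (adjusted p = 0.446) and C1qb at 0.09 ± 0.15 (adjusted p = 0.937). The unadjusted p was under 0.05 for 2 members, C1qc and C3, and for 2064 of the 14087 genes. On this mean of the genotypes the DESeq2 Wald test called 0 members as well. Within HET animals alone C1qc rose by 1.16 ± 0.27 (adjusted p = 0.00771), from 2904, 4710, 2990 and 2934 CPM on control chow to the values given above, with no overlap. It was 1 call among 7 members, where 2.55% of all genes were called, and it remained in each of the 8 repeats without 1 library. Some other measures separated the same 8 libraries without overlap. The mitochondrial share was 1.49 to 3.27% on control chow and 4.05 to 4.56% on cuprizone, and the summed microglia markers (12 of 12 found) were at 30660 to 34248 CPM and 21324 to 26520 CPM. In the same order, summed astrocyte markers were at 278 to 292 CPM and 150 to 200.3 CPM, and those of reactive astrocytes at 25.6 to 59.1 CPM and 79.2 to 106.8 CPM. Markers of oligodendrocyte precursors were at 9.24 to 33.4 CPM and 33.6 to 68.6 CPM, and those of endothelium at 91.6 to 113 CPM and 204 to 374 CPM. The summed markers of the remaining cell types examined overlapped. Among them were border macrophages (413 to 1176 CPM and 268 to 576 CPM), neutrophils (110 to 1993 CPM and 103 to 314 CPM) and mature oligodendrocytes (494 to 686 CPM and 382 to 547 CPM). The part of these cell types in the result was not tested. With the mitochondrial share as a covariate the value was 0.07 (adjusted p = 1), and without the libraries that stood apart 1.15 (adjusted p = 0.132).

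On cuprizone, 12 weeks against 5 weeks, C1qa rose by 0.73 ± 0.17 (adjusted p = 0.0385), 1 call among 7 members against 0.341% of all genes. At 5 weeks it was at 6338, 7037 and 4038 CPM in WT, 7374, 7715 and 7467 CPM in HET, and 5134, 5457 and 5191 CPM in KO. At 12 weeks the WT libraries were all higher than this and the KO libraries were higher in 2 of 3 animals, whereas the 4 HET libraries were lower than the 3 HET libraries at 5 weeks. C1qb was at -0.42 ± 0.15 (adjusted p = 0.252) and C1qc at -0.25 ± 0.17 (adjusted p = 0.67). The call was lost without any 1 of 13 of the 19 animals (1040, 1106, 1108, 1748, 2478, 310, 3917, 743, 8043, 8485, 9144, 9469 and 981; adjusted p = 0.0506 to 0.11). Noncoding genes took 5.20 to 7.50% of counts at 5 weeks of cuprizone and 6.79 to 9.80% at 12 weeks. With that share as a covariate C1qa was at 0.65 and did not pass (adjusted p = 0.511), and of all genes 4 were called in place of 48. C1qa was at 0.44 with the mitochondrial share (adjusted p = 0.271) and at 0.66 without the libraries that stood apart (adjusted p = 0.0116).

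The ratio of C1qa to C1qc counts within a library is not affected by the library's total. Its log2 value ran from -0.41 to 2.85 over the 37 microglia libraries (SD 0.90), and C1qa was 37.04 to 85.10% of all C1q counts. In the nonmicroglia libraries it ran only from 0.66 to 1.55 (SD 0.24), and C1qa was 56.0 to 69.5% of C1q counts. The median counting error of the log2 ratio was 0.0230 in microglia and 0.184 in nonmicroglia, so that most of the spread in microglia was not counting error. After 12 weeks of cuprizone the ratio was 1.92, 2.85 and 2.51 in WT, 0.08, 0.14, -0.30 and -0.18 in HET, and 1.69, 0.84 and 2.39 in KO. HET lay below both other genotypes with no overlap. HET differed from WT by -2.50 (exact permutation test, two-sided, p = 0.0286, adjusted 0.0935 over 36 tests) and KO from HET by 1.71 (exact permutation test, two-sided, p = 0.0286, adjusted 0.0935), and 0.0286 is the smallest p that the 35 arrangements can give. In the nonmicroglia libraries of the same animals HET lay above WT by 0.40 (exact permutation test, p = 0.0286, adjusted 0.0935), the reverse direction. Counting error in nonmicroglia, up to 0.248, was large beside the SD of 0.24 there, so that its ratios are much less certain. In microglia at 5 weeks the ratio was lower on cuprizone than on control chow by 0.87 on average (-0.87, exact permutation test within genotypes, p = 0.0187, adjusted 0.0935). At 12 weeks the same difference was -0.18 (exact permutation test within genotypes, p = 0.603, adjusted 0.665). Within HET microglia at 12 weeks it was -1.26, with overlap (exact permutation test, p = 0.0857, adjusted 0.162).

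Over the 37 microglia libraries the ratio fell as the mitochondrial share of counts rose, from 1.49 to 4.65% (Pearson r = -0.894, Spearman rho = -0.862, permutation p = 1e-05 for each, the smallest they can give, adjusted 4.67e-05 over 28 relations). Without the 2 libraries farthest from the median share r was -0.879. Within subsets r was -0.896 at 5 weeks, -0.896 at 12 weeks, -0.864 on control chow and -0.951 on cuprizone, and it was -0.919 for the deviations from the 12 group means. The relation was chosen after seeing the data, and both measures come from the same library's counts. In the nonmicroglia libraries, where the counting error of the ratio was large beside its spread, r was -0.122 (rho = -0.157, permutation p = 0.47). Taken 1 by 1, log2 CPM of C1qa had r = -0.639 with the share, C1qb 0.68 and C1qc 0.867, whereas the sum of the C1q genes had -0.0617, C3ar1 0.185 and C5ar1 0.274. The ratio also had r = 0.437 with the noncoding share of counts (permutation p = 0.00706, adjusted 0.0165). With component 1 it had r = 0.503 (permutation p = 0.00141, adjusted 0.00395). With the ratio in the same animal's nonmicroglia library r was -0.391 (permutation p = 0.0171, adjusted 0.0319). RNA integrity numbers, given for 21 of the 37 libraries, had r = -0.547 with the ratio (rho = -0.591, permutation p = 0.00989, adjusted 0.0213). For these numbers r within subsets was -0.0267 in the 15 libraries of 5 weeks, -0.706 in the 6 of 12 weeks, -0.812 in the 10 on control chow (adjusted p = 0.0154) and -0.663 in the 11 on cuprizone (adjusted p = 0.0476, permutation tests). Without the 2 farthest libraries these were -0.0805, 0.714, -0.241 and -0.437. Whether the mitochondrial share, the noncoding share, component 1 or RNA quality played a part in the C1q results was not tested.

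**Figure D3:**
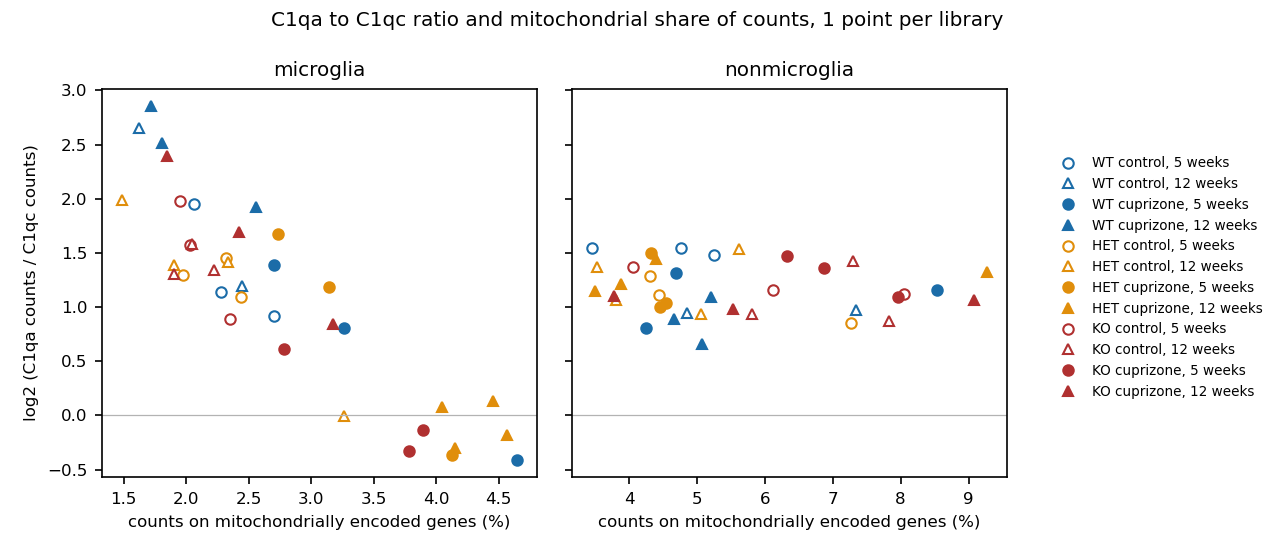
Log2 ratio of C1qa to C1qc counts against the percent of counts on mitochondrially encoded genes, 1 point per library, microglia on the left and nonmicroglia on the right. In microglia the points fall along 1 line (r = -0.894), whereas nonmicroglia libraries stay between 0.66 and 1.55. The HET animals at 12 weeks of cuprizone lie at the lower right end of that line. So do animals 9144 (WT), 1106 (HET), 2478 and 8485 (KO) at 5 weeks of cuprizone. The other microglia libraries of 5 weeks of cuprizone were at 0.61 to 1.68, and HET control animal 943 of 12 weeks was at -0.01.

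C3, on chromosome 17 (57203970 to 57228136, minus strand), is the central component of the cascade. It was sparse: 626 counts in all microglia libraries together, with 10 of 37 at 0, and a highest level of 56.5 CPM. At 5 weeks of cuprizone it was at 33.3, 14.04 and 56.5 CPM in WT, 1.71, 18.4 and 0 CPM in HET, and 3.51, 0 and 0 CPM in KO microglia. WT and KO did not overlap, and edgeR put KO against WT at -5.93 ± 1.85, which did not pass over all genes (adjusted p = 0.625). Here the choice of test decided, since limma voom gave an adjusted p of 0.017 and the DESeq2 Wald test 0.0372 for the same difference. A fitted fold change between so few counts depends on the prior count. Averaged over genotypes, C3 was at 2.10 ± 0.97 between diets at 5 weeks (adjusted p = 0.367) and at 1.88 ± 0.93 at 12 weeks (adjusted p = 0.333), neither of which passed. At 12 weeks of cuprizone it was at 51.4, 15.2 and 9.86 CPM in WT, 0.96, 3.03, 9.41 and 9.01 CPM in HET and 36.2, 12.4 and 4.39 CPM in KO.

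C4b, also on chromosome 17 (34728380 to 34743882, minus strand), is cleaved by the proteases of C1. It was at 0 to 41.3 CPM in microglia (median 9.03) and 0.48 to 47.1 CPM in nonmicroglia (median 19.3), a fraction that holds astrocytes and oligodendrocytes among others. Its near-identical copy C4a held 18 counts in microglia and 30 in nonmicroglia, beside 802 and 1355 of C4b, and how reads shared by the copies were counted is not given in the sources used here, so that C4b values are uncertain to that extent. No diet comparison passed. In nonmicroglia C4b was at 0.83 ± 0.56 at 5 weeks (adjusted p = 0.857) and 0.39 ± 0.56 at 12 weeks (adjusted p = 1). Its 5 highest group means included all 3 cuprizone groups of 12 weeks, with 32.9 ± 10.9 CPM (SD, n = 4) in HET, 29.7 ± 10.6 CPM (SD, n = 3) in KO and 22.3 ± 3.74 CPM (SD, n = 3) in WT, but no neighbours in that order differed by more than their pooled SD.

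The receptor C3ar1 (chromosome 6, 122847138 to 122856161, minus strand) had the smallest spread relative to its mean of the members in microglia, at 159 to 426 CPM in microglia (median 329). Group means ran from 240 ± 73.9 CPM (SD, n = 3) in HET controls at 5 weeks to 386 ± 26.5 CPM (SD, n = 3) in WT animals on cuprizone at 5 weeks. It was at 0.31 ± 0.15 between diets at 5 weeks (adjusted p = 0.423) and at 0.24 ± 0.15 at 12 weeks (adjusted p = 0.531).

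The receptor C5ar1 (chromosome 7, 16246743 to 16259540, minus strand) was at 12.0 to 100.2 CPM in microglia (median 39.7). The 3 highest group means were those on cuprizone for 5 weeks: 72.0 ± 35.8 CPM in KO, 64.6 ± 16.3 CPM in WT and 56.4 ± 16.6 CPM in HET (SD, n = 3 each), beside 40.8 ± 3.15, 32.4 ± 15.3 and 29.4 ± 10.2 CPM in WT, HET and KO controls. The difference was 0.92 ± 0.33 and did not pass (unadjusted p = 0.00736, adjusted p = 0.178). At 12 weeks it was 0.12 ± 0.33 (adjusted p = 1). Only within WT at 5 weeks did the diets not overlap (38.8, 44.4 and 39.0 CPM against 52.4, 58.3 and 83.2 CPM).

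Serping1 (chromosome 2, 84765387 to 84775444, minus strand), the inhibitor, was a gene of the nonmicroglia fraction, at 0 to 32.01 CPM there (median 7.69, 5 libraries at 0). Its group means ran from 4.61 ± 2.15 CPM (SD, n = 3) to 15.2 ± 12.8 CPM (SD, n = 3). It was at 0.34 ± 0.86 between diets at 5 weeks and at -0.52 ± 0.84 at 12 weeks (adjusted p = 1 for each). In microglia it was at 0 in 27 of 37 libraries and was not tested.

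**Figure D4:**
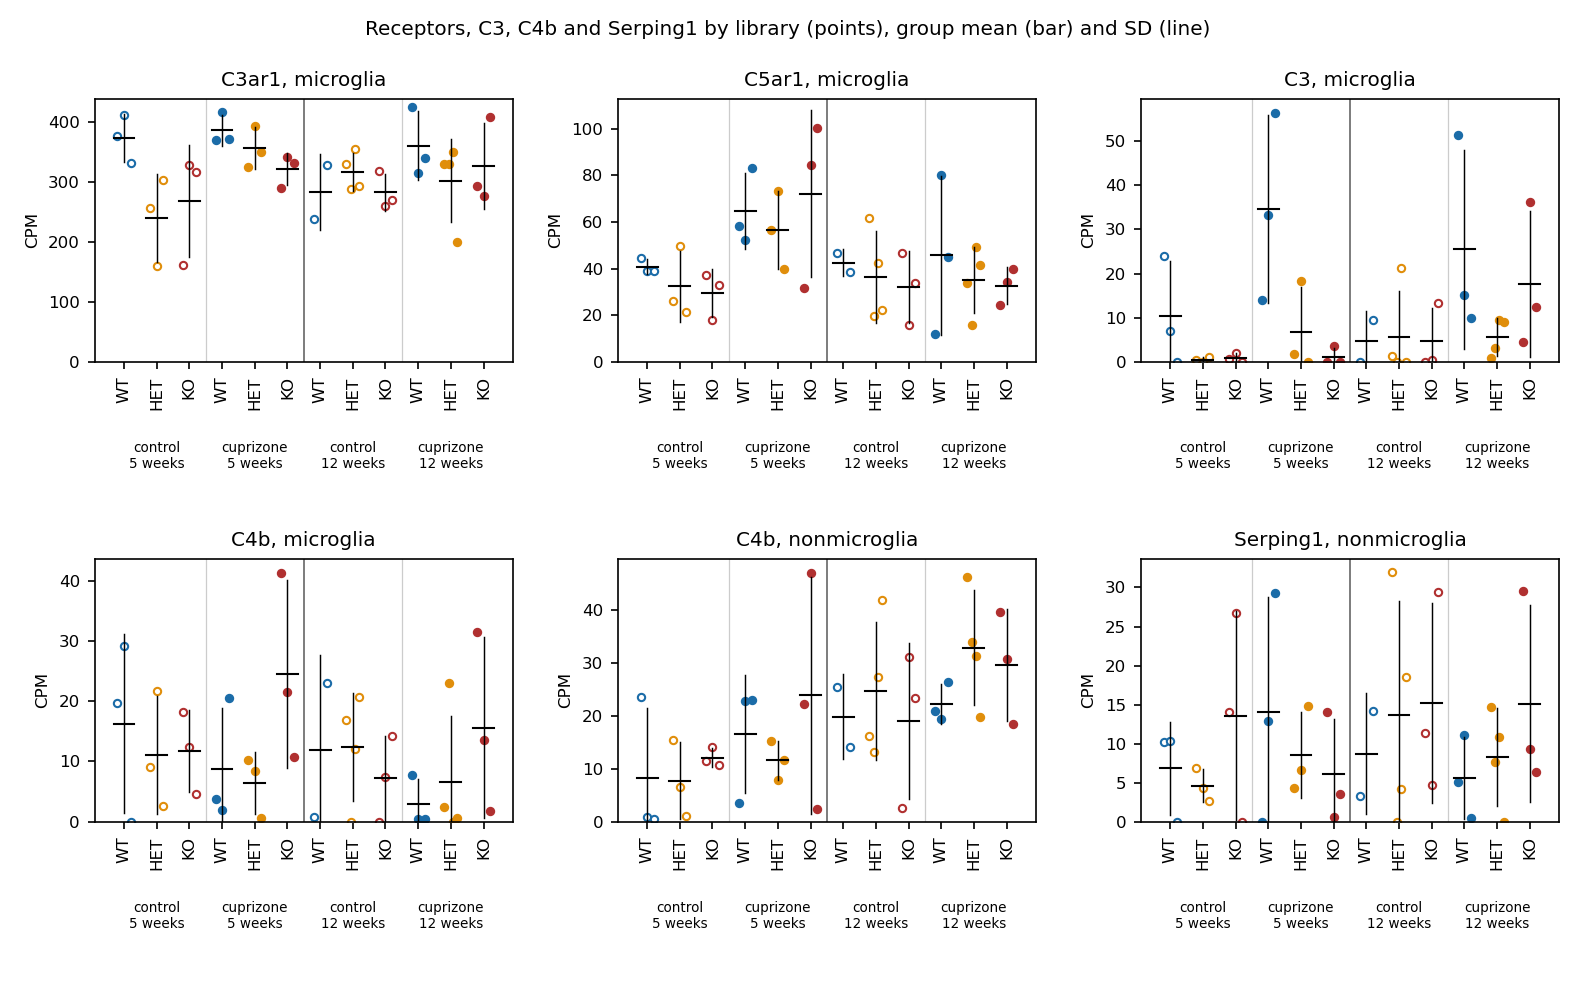
Levels of C3ar1, C5ar1, C3 and C4b in microglia and of C4b and Serping1 in nonmicroglia, in CPM on linear axes from 0, with 1 point per library, a bar for the group mean and a line for its SD. C3ar1 stays between 159 and 426 CPM, whereas C3 and C4b in microglia include libraries at 0.

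In the ordered group means, most neighbours did not differ by more than their pooled SD. In microglia 1 of 11 neighbouring pairs did so for C1qa, 1 for C1qb, 2 for C1qc and 0 for C3, C4b, C3ar1 and C5ar1. For C1qc they were HET on cuprizone for 12 weeks above KO on cuprizone for 5 weeks (6679 and 5240 CPM), and HET controls of 5 weeks above WT on cuprizone for 12 weeks (2861 and 2575 CPM).

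In nonmicroglia no member was called in any of 27 comparisons (189 tests with edgeR, 8 with an unadjusted p under 0.05). Of the 16915 genes, 414 to 1875 had an unadjusted p under 0.05 in any 1 of those comparisons. Of all 16915 genes tested, 0.443% were called between diets at 5 weeks and 0.497% at 12 weeks. Between weeks 0.236% were called on control chow and 0.964% on cuprizone. The smallest p between weeks was that of C3 on control chow, 12 against 5 weeks (3.003 ± 1.38, adjusted p = 0.409), with C4b next (1.21 ± 0.58, adjusted p = 0.43). DESeq2 called 0 members in these 4 comparisons. In microglia 6 of 189 member tests were called and 34 had an unadjusted p under 0.05. All 6 calls were of C1q genes. Of the 14087 genes, 600 to 2064 had an unadjusted p under 0.05 in any 1 microglia comparison. In the other 20 microglia and 23 nonmicroglia comparisons no member was called, where 0 to 0.958% and 0 to 0.142% of all genes were.

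Between the fractions, C1qa, C1qb, C1qc, C3ar1 and C5ar1 were genes of the microglia fraction. In WT controls they were higher there by log2 fold changes of 6.56 ± 0.36 (adjusted p = 8.72e-23), 6.15 ± 0.34 (adjusted p = 4.9e-30), 6.14 ± 0.39 (adjusted p = 4.74e-20), 6.93 ± 0.44 (adjusted p = 3.51e-26) and 6.77 ± 0.88 (adjusted p = 3.73e-10). That was 5 of 8 members, against 29.4% of all 18408 genes tested, on a scale whose median gene was at -0.24. Serping1 was at -4.53 ± 1.88 (adjusted p = 0.0594), C3 at 2.14 ± 1.58 (adjusted p = 0.345) and C4b at 0.08 ± 1.01 (adjusted p = 1). Limma voom did not call C1qa (adjusted p = 0.465) and C1qc (adjusted p = 0.0905) here, at fold changes of 6.39 and 6.20.

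Averaged over all 12 groups, a comparison added after the data were seen, 7 of 8 members were called, against 51.7% of all genes. C3 was higher in microglia by 2.75 ± 0.58 (adjusted p = 1.84e-05) and Serping1 lower by -5.05 ± 0.68 (adjusted p = 2.37e-10). In counts this was 626 of C3 in microglia and 181 in nonmicroglia, and 40 of Serping1 in microglia and 746 in nonmicroglia. The call of C3 remained in 35 of 37 repeats without 1 animal. It was lost without KO animal 2478 or WT animal 9145 (adjusted p = 1 in each repeat), at fold changes of 2.68 and 2.47. C3 was at 0 in every nonmicroglia library of HET on either diet and KO on control chow at 5 weeks. The same held for KO on cuprizone at 12 weeks. These groups were at 0 in every repeat, also where the call remained. In the group of animal 2478 (KO on cuprizone at 5 weeks) 2 of 3 nonmicroglia libraries were at 0. In that of animal 9145 (WT controls at 12 weeks) 1 of 2 was at 0. The part of libraries at 0 in the lost calls was not tested. C4b did not pass (-0.72 ± 0.37, adjusted p = 0.1). Paired by animal (replicate block), it passed at -0.98 (adjusted p = 0.0254). For a change of the fraction difference with diet, 0 of 8 members were called at 5 weeks, against 0.429% of all genes, and 0 of 8 at 12 weeks, against 0.799%. At an unadjusted p under 0.05 there were 3 members at 5 weeks and 0 at 12 weeks, beside 1459 and 1616 of the 18408 genes.

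As a share of the microglia level, the mean nonmicroglia level over 37 animals was 1.37% for C1qa, 1.27% for C1qb, 1.33% for C1qc, 1.20% for C3ar1 and 1.32% for C5ar1. The 12 microglia markers, measured the same way, were at 1.31 to 7.33% (median 1.49%). These 5 members were thus at or just below the lower end of the range of the microglia markers. Over the 37 nonmicroglia libraries the C1q sum and the summed microglia markers had r = 0.91 and rho = 0.881, both being shares of the same library. C3 was at 31.1%, C4b at 175% and Serping1 at 1497%.

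**Figure D5:**
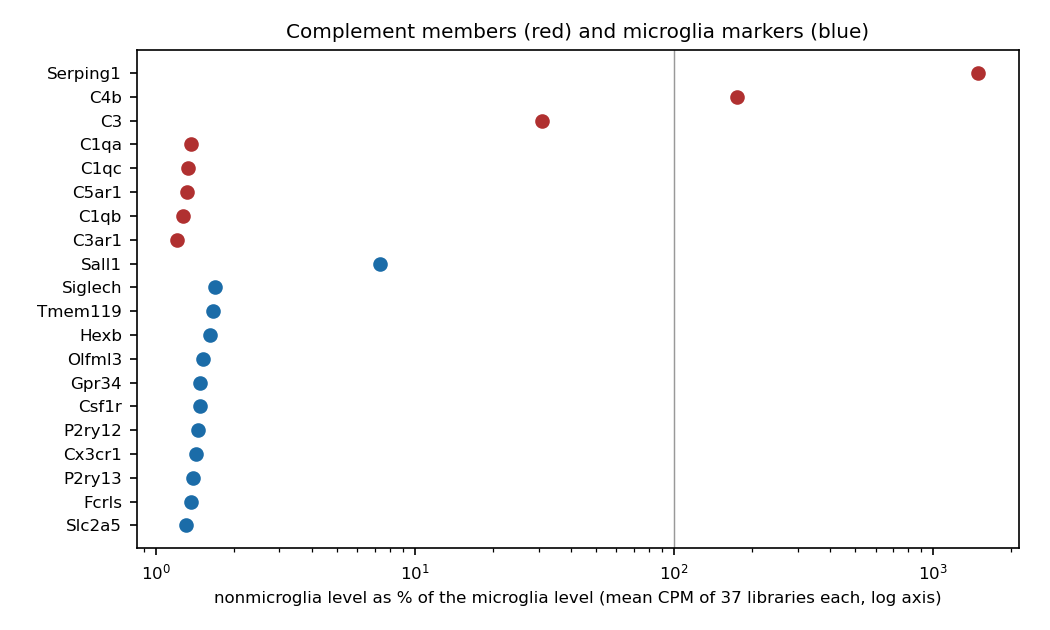
Mean level in 37 nonmicroglia libraries as a percent of the mean level in 37 microglia libraries, on a log axis, for the 8 complement members (red) and 12 microglia markers (blue). C1qa, C1qb, C1qc, C3ar1 and C5ar1 lie at 1.20 to 1.37%, beside the markers, and C4b and Serping1 lie above 100%.

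Of 46 other complement genes (27 components and activators, 7 receptors and 12 regulators), 19 passed the filter on low counts in microglia and 23 in nonmicroglia. In microglia at 5 weeks of cuprizone 1 of 19 rose and 0 fell, with a median log2 fold change of -0.07 beside 0.00 for all genes (-6.47e-05). It was Itgax, a chain of complement receptor 4 (3.04 ± 0.39, adjusted p = 6.56e-06). At 12 weeks 1 rose and 1 fell, with a median of -0.27 beside 0.01 for all genes. Itgax rose by 3.53 ± 0.41 (adjusted p = 8.28e-07), and Csmd3, of a family known to inhibit complement, fell (-0.97 ± 0.23, adjusted p = 0.00589). In nonmicroglia 0 rose and 1 fell at each week. It was Clu, the fluid-phase regulator clusterin, which is also an astrocyte gene (-0.67 ± 0.16, adjusted p = 0.0246 at 5 weeks and -0.82 ± 0.16, adjusted p = 0.0016 at 12 weeks). The summed astrocyte markers, Clu among them, were at 4434 to 8925 CPM in nonmicroglia of controls and 3078 to 6362 CPM on cuprizone, and their part in this fall was not tested.

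Likeness over the 12 group means of log2 CPM was ranked among genes of at least moderate level, 8654 in microglia and 10423 in nonmicroglia, each member in the fraction where it was higher. These values describe the 12 means only. C1qa was most like Mpst (Pearson r = 0.920), Amz1 (0.910) and Adck2 (0.908). The 3 genes most like C1qb were mt-Nd2 (0.928), a mitochondrially encoded gene, Arhgap1 (0.907) and Ly6e (0.881). For C1qc they were Mt1 (0.952), Itgb2 (0.940) and Pabpc4 (0.940), of which Itgb2 encodes the shared chain of complement receptors 3 and 4. C3ar1 was most like Prr5l (0.912), C5ar1 most like Cxcl10 (0.835), C3 most like Slc11a2 (0.879), C4b most like Tmem125 (0.969) and Serping1 most like Slc45a3 (0.83).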

How the data were processed

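Poly-adenylated RNA of 37 microglia and 37 nonmicroglia libraries was sequenced as 3' tags with a low-input kit, per the labels' protocols. The deposited table holds whole counts of tags per gene, not normalized. GRCm38.p6, STAR, R 3.4.3, FastQC 0.11.5 and MultiQC are named in the submitters' processing notes. For the counter, its annotation and the use of strand the sources used here give nothing, so that overlapping genes and close copies can share counts.

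Each fraction was fitted with edgeR 4.0.16 in R 4.3.3 (filterByExpr with a minimum count of 10, TMM, robust quasi-likelihood, 12 group means and sex). The fraction comparisons used both fractions, with 24 group means and sex. Standard errors came from the F statistic, p-values were two-sided, and Benjamini-Hochberg adjustment ran over all genes tested, with calls at an adjusted p under 0.05. Serping1 did not pass the filter in microglia, nor C5ar1 in nonmicroglia. Ratios were compared with exact permutation tests. The code was tested on simulated data.

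Named genes are the 8 members, Trem2 and those of 46 other complement genes that were called in the diet comparisons averaged over genotypes. Members and lists were chosen with earlier results of these data known. No library was a copy of another of its fraction (chi-square of at least 8.56 per degree of freedom in 1332 pairs). Fractions are paired by the animal. The correlation of an animal's 2 libraries, as deviations from group means across genes, had a median of 0.0271 (-0.0504 to 0.124).

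Alternatives were DESeq2 1.42.0 size factors and Wald test, limma 3.58.1 voom, no filter, no sex term, leaving out each library and a replicate block by animal. Within a fraction, the filter, normalization and dispersion were estimated anew without the library. In the fraction comparisons both libraries of an animal were left out together, keeping the dispersion trend and genes of the full fit. Added after seeing the data were 2 covariates (the shares of noncoding and of mitochondrial counts) and leaving out libraries beyond 30 on component 1.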

Additional observations from a re-analysis of the deposited data

Results flagged for a closer look

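The 4 HET groups of 12 weeks, with 4 libraries each, were examined for each member and for the log2 ratio of C1qa to C1qc. These were 36 sets of values in all, which share the same libraries and are not independent. In 8 of them the gap of 1 library to the nearest of the others was large beside the whole range. Chance gives about 1 in 20 for a single set only if its values are normally distributed, which does not hold for levels near 0. Where all other libraries are at 0, as for Serping1, the gap is the whole range whatever the value. HET control animal 943 had C1qc at 4710 CPM in microglia (others 2904 to 2990), Serping1 at 14.95 CPM in microglia (others 0) and C5ar1 at 0 CPM in nonmicroglia (others 0.59 to 0.71). HET control animal 7674 had C3 at 21.26 CPM in microglia (others 0 to 1.30). Of the HET animals on cuprizone, animal 9469 had C3ar1 at 199.6 CPM in microglia (others 330.1 to 350.8) and C5ar1 at 0 CPM in nonmicroglia (others 0.55 to 0.59). Animal 2476 had C4b at 23.06 CPM in microglia (others 0 to 2.40), and animal 1040 had C3 at 4.69 CPM in nonmicroglia (others 0 to 0.66). Values of C3, C4b, C5ar1 and Serping1 this low rest on few counts, 23 for Serping1 in animal 943.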

How the results depend on the processing

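Counts of members called in microglia changed with the setting. For cuprizone against control at 5 weeks, 1 member was called, but 0 by limma voom, 2 with no filter (C1qa and C1qc), and 0 with the noncoding share, with the mitochondrial share and without the libraries that stood apart. At 12 weeks 0 were called, but 1 with no filter (C1qc) and 1 with the mitochondrial share (C1qa). Within HET at 12 weeks 1 was called, but 0 with the mitochondrial share and 0 without the libraries that stood apart. For HET against WT at 12 weeks of cuprizone 2 were called, but 1 with no sex term (C1qc), 1 with the noncoding share (C1qc), 0 with the mitochondrial share and 1 without the libraries that stood apart (C1qa). By limma voom the 2 were C1qa and C1qc in place of C1qb and C1qc. For KO against HET 1 was called, but 2 with no filter, 0 with the noncoding share, 0 with the mitochondrial share and 0 without the libraries that stood apart. For 12 against 5 weeks on cuprizone 1 was called, but 0 with the noncoding share and 0 with the mitochondrial share. Without single libraries the counts ranged from 0 to 1, 0 to 0, 1 to 1, 0 to 2, 0 to 1 and 0 to 1 in these 6 comparisons, from 5 to 6 between fractions in WT controls and from 6 to 8 over all groups. In the 4 nonmicroglia comparisons counted they stayed at 0.

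Direction reversed with the mitochondrial share for C1qc (-0.079) and C1qb (-0.13) between diets at 5 weeks, for C1qc within KO at 5 weeks (-0.013), for C1qa between HET and WT (0.10) and for C1qa between KO and HET (-0.39), and, without animal 1106, for C1qc within HET at 5 weeks (-0.088). The cause was not tested. Single calls gained were C1qc within HET at 5 weeks without animal 1108 (1.21, adjusted p = 0.0418), C1qa between HET and WT without animal 1746 (-1.38, adjusted p = 0.0299), Serping1 between fractions in WT controls without animal 309 (-6.52, adjusted p = 0.0186), and C4b over all groups without animals 1746, 2476 or 9145. With the replicate block by animal 5 members were called between fractions in WT controls and 8 over all groups, where C4b was added, and no other call changed. DESeq2 size factors moved the median of all genes between fractions to -0.47 in WT controls and -0.53 over all groups on the log2 scale, with C4b at -0.96 over all groups (adjusted p = 0.0216). Counts of C3, C4b and Serping1 were too few to show small changes.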
